A study of Mus musculus with 7 samples.

Results

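The neutrophil genes described here are S100a8, S100a9, Csf3r, Fpr1, Fpr2, Il1r2, Trem1 and Retnlg. They were chosen by name, and each was read from the row of the deposited gene table whose Ensembl identifier carries that symbol. All 8 were found among the 43346 genes of the table, in all 7 tumors, and all 8 were among the 15810 genes with enough counts to be tested.

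Neutrophils are short-lived phagocytes of the bone marrow (BM) that enter inflamed tissue in large numbers, and they are a hallmark of colitis. S100a8 and S100a9 are small calcium-binding proteins that pair to form calprotectin, an abundant protein of the neutrophil cytosol that binds zinc and manganese and signals through Tlr4 and Ager; fecal calprotectin is a clinical measure of gut inflammation. Retnlg is a secreted resistin-like protein of neutrophils. Csf3r is the receptor for granulocyte colony-stimulating factor, which drives neutrophil production. Fpr1 and Fpr2 are chemotactic receptors for formylated peptides of bacteria and mitochondria. Il1r2 is a decoy receptor that takes up interleukin-1 without signaling, and Trem1 is an activating receptor that signals through Tyrobp. None of the 8 is exclusive to neutrophils. Monocytes share several of them, and S100a8 and S100a9 are also made by stressed squamous epithelium.

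RNA was measured in whole colon tumors of 7 mice, 3 with Dnmt3a+/+ BM and 4 with Dnmt3a+/- BM. The Dnmt3a+/- donors carried 1 floxed Dnmt3a allele and Mx1-Cre and were given poly(I:C) to delete it, which leaves heterozygous loss of a DNA methyltransferase as a model of clonal hematopoiesis. Mx1-Cre is driven by an interferon-responsive promoter that poly(I:C) turns on. WT littermates of the same Mx1-Cre breeding, also given poly(I:C), were the donors of the Dnmt3a+/+ BM. All marrow was CD45.2 and went into lethally irradiated WT CD45.1 recipients on a C57BL6/J background, whose age the labels give as 8 wk and the methods as younger. In both groups, the colon was then exposed to the carcinogen azoxymethane (10 mg/kg, given once) and to dextran sulfate sodium (3%, in 3 cycles), which induces colitis-associated cancer. The deletion is therefore in the transplanted blood lineage, and the epithelium, the stroma and any surviving host leukocytes of every tumor are WT. Male and female recipients were used, and the labels do not say which tumor is from which sex. The column names begin with BMT18 (replicates 1 and 2 of both groups) or BMT8 (Dnmt3a+/+ BM replicate 3 and Dnmt3a+/- BM replicates 3 and 4). These prefixes are read here as 2 transplantation experiments, which the labels do not state.

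Total counts ranged from 38472738 to 64314999 per tumor. Dnmt3a itself was at 24.3, 23.1 and 20.2 CPM (counts per 1000000 counts of the library, with TMM normalization) in Dnmt3a+/+ BM replicates 1 to 3 and at 27.7, 43.0, 28.3 and 22.0 CPM in Dnmt3a+/- BM replicates 1 to 4, so the message of the whole tumor was not lower with the deleted graft (log2 fold change 0.43, standard error 0.24, adjusted p = 0.542, edgeR). Dnmt3a+/- BM replicate 2 stood apart from the other tumors. Its Spearman correlation across genes with each of them was 0.902 to 0.949, and the 11 squamous epithelial markers, led by Krt13, Krt14 and Krt5, summed to 222 CPM there against 4326 to 25559 CPM in the other 6. Log2 fold changes that move with this tumor are given below also without it. In bulk tissue, fewer cells of a type and less RNA per cell cannot be told apart.

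S100a8 and S100a9 are neighbors on chromosome 3, and Fpr1 and Fpr2 are neighbors on chromosome 17 that are transcribed away from each other. The upstream sequences of these pairs are shown because the pairs are close in position while the first pair and the second differed in their order across the tumors. Each sequence is the 250 bases before the RefSeq gene start on GRCm38.p6, read 5′ to 3′ on the gene's strand. Capitals mark TTNNGNAA (a C/EBP-type motif, either strand), GAGGAA (a PU.1-type motif, either strand) and TATAAA (gene strand).
S100a8 (chr3:90668821-90669070, plus strand): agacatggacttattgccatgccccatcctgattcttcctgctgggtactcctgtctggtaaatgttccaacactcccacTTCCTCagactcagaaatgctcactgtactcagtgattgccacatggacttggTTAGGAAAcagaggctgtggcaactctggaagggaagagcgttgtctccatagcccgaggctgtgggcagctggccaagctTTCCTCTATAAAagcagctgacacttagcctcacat
S100a9 (chr3:90695722-90695971, minus strand): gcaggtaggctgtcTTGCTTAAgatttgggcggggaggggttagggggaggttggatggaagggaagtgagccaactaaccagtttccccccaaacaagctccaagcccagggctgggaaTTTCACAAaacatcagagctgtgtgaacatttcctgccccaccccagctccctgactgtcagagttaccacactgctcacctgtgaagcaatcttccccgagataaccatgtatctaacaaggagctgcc
Fpr1 (chr17:17883940-17884189, minus strand): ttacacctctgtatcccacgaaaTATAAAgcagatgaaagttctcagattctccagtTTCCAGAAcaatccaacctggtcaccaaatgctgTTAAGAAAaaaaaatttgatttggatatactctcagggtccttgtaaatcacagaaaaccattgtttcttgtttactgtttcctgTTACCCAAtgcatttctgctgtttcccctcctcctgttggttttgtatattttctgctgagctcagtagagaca
Fpr2 (chr17:17887574-17887823, plus strand): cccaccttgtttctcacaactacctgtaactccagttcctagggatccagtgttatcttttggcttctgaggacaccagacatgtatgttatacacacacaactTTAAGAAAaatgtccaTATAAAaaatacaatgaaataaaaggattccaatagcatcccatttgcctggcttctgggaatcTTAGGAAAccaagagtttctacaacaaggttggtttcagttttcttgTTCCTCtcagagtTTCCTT
Matches were counted over these bases and the 50 that follow the start. S100a8 has 1 TTNNGNAA, 2 GAGGAA and a TATAAA that begins 30 bases before its start. S100a9 has 2 TTNNGNAA, no GAGGAA, and a TATAAA that begins at the annotated start. Fpr1 has 3 TTNNGNAA and no GAGGAA, and Fpr2 has 3 TTNNGNAA, the last of which runs past the printed end, and 1 GAGGAA. Of the other members, Csf3r holds 1 GAGGAA, Trem1 holds 1 of each of the first 2 motifs, Retnlg holds 1 TTNNGNAA and Il1r2 holds no match. The RefSeq starts can differ from the GENCODE spans given below. The window of Il1r2 (chr1:40085843-40086142) lies wholly inside its span, and the RefSeq start of S100a8 also lies inside its span. These letters are common: TTNNGNAA is in 40.7%, GAGGAA in 28.3% and TATAAA in 8.32% of 32851 mouse promoter windows of the same length. A match is a description of the letters and not a binding site.

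The genes lie on GRCm38, by the GENCODE M21 annotation, at chr3:90668978-90670035 (S100a8), chr3:90692632-90695721 (S100a9), chr16:48872621-48874496 (Retnlg), chr4:126024550-126044440 (Csf3r), chr17:17876471-17883940 (Fpr1), chr17:17887824-17893952 (Fpr2), chr1:40074079-40125231 (Il1r2) and chr17:48232768-48246924 (Trem1). Their levels spanned a wide range. Per kilobase of exon, S100a9 was the highest at 119 ± 40.2 CPM per kb (SD, n = 7 tumors) and S100a8 followed at 47.7 ± 14.7 CPM per kb, and S100a9 was above S100a8 in 7 of 7 tumors. Retnlg was next at 4.50 ± 1.05 CPM per kb, below S100a8 in 7 of 7 tumors. Among the receptors, Il1r2 was at 3.15 ± 1.42 CPM per kb, below Retnlg in 4 of 7 tumors, so these neighbors in the order did not separate. Trem1 (1.87 ± 1.21 CPM per kb) was below Il1r2 in 7 of 7 tumors. Csf3r (1.83 ± 0.667 CPM per kb) did not separate from Trem1, which was the higher of the pair in 3 of 7 tumors. Fpr2 (0.707 ± 0.432 CPM per kb) was below Csf3r in 7 of 7 tumors and did not separate from Fpr1 (0.651 ± 0.389 CPM per kb), the lowest of the 8. The counts behind these levels were 1056 to 3186 per tumor for S100a8 and S100a9 and only 13 to 99 for Fpr1 and Fpr2. Fpr1 and Fpr2 belong to a family of similar genes, and how the authors' counting divided shared reads among them is uncertain. Fpr3, which overlaps Fpr2 on the same strand, held 6 counts over the 7 tumors.

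The first comparison asks whether the level of each neutrophil gene in the tumor differed with the Dnmt3a genotype of the graft. It did not separate the groups for any of the 8: edgeR called 0 of 8, the tumors of the 2 groups overlapped for 8 of 8, and 4 log2 fold changes were above and 4 below 0. At an unadjusted p under 0.05, 0 of 8 passed, against 11.0% of all genes tested. DESeq2 called 0 of 8, against 1.83% of the genes it tested. By edgeR, 0% of all 15810 genes were called (adjusted p under 0.05 together with a change of more than 1 on the log2 scale), and 12.4% of all genes had groups that did not overlap. The median log2 fold change of the members was -0.0025, and that of all genes tested was 0.0025. With 4 tumors against 3, the intervals were wide, and a 2-fold change in either direction lay within the 95% interval for 4 of the 8, Fpr1, Fpr2, Il1r2 and Trem1. For Csf3r and S100a9, the interval held a 2-fold decrease but not a 2-fold increase.

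**Figure D1:**
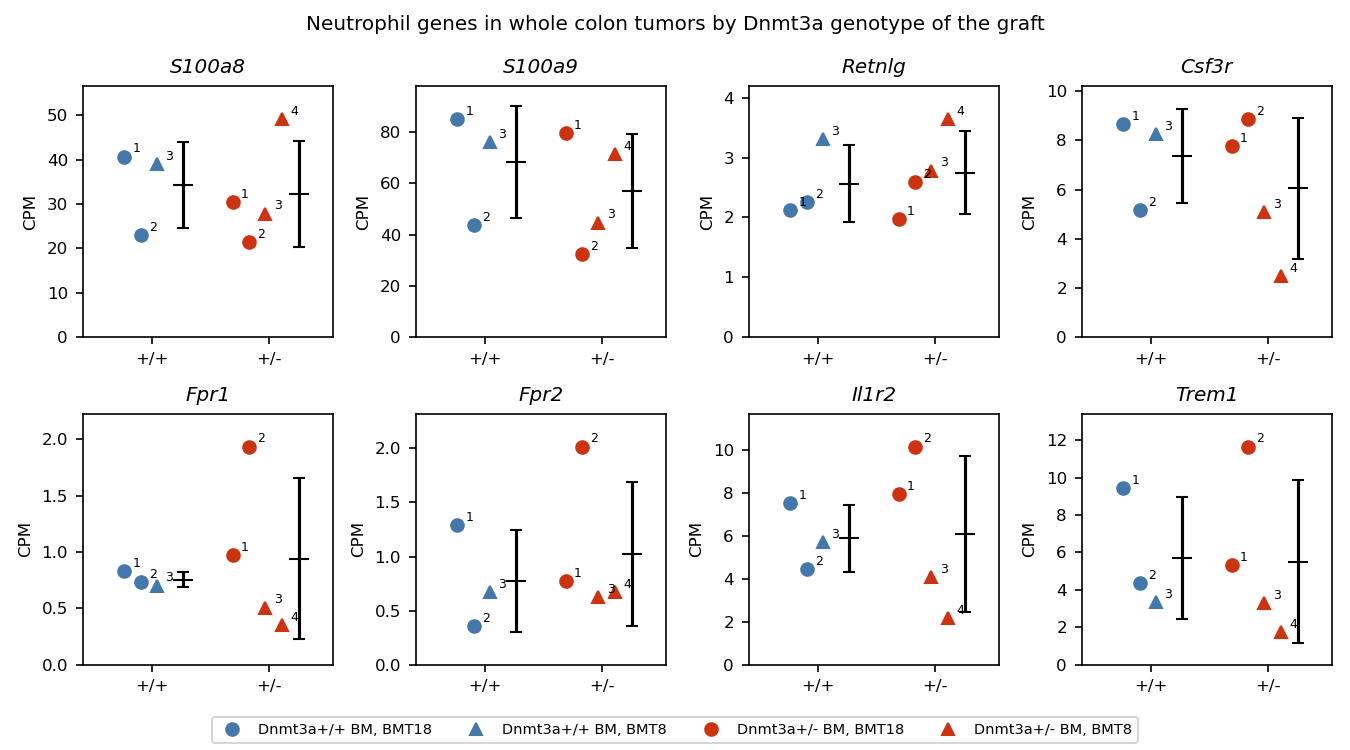
CPM of each neutrophil gene (y axis, starting at 0) in the 3 tumors with Dnmt3a+/+ BM (blue) and the 4 with Dnmt3a+/- BM (red), with replicate numbers beside the points, circles for BMT18 and triangles for BMT8. Black bars are the group mean ± SD; the groups overlap in all 8 panels, and Dnmt3a+/- BM replicate 2 is the highest tumor in each of the 5 receptor panels.

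Of the secreted proteins, S100a8 was at 40.7, 23.1 and 39.0 CPM in Dnmt3a+/+ BM replicates 1 to 3 and at 30.4, 21.5, 27.8 and 49.2 CPM in Dnmt3a+/- BM replicates 1 to 4. The highest and the lowest tumor were both in the Dnmt3a+/- BM group, replicates 4 and 2. The log2 fold change was -0.09 (standard error 0.32, 95% interval -0.83 to 0.65, adjusted p = 0.949, edgeR; 0.091 without replicate 2). Its partner S100a9 was at 85.2, 43.9 and 76.2 CPM with Dnmt3a+/+ BM and at 79.5, 32.5, 44.7 and 71.4 CPM with Dnmt3a+/- BM. Again Dnmt3a+/- BM replicate 2 was the lowest, and the other 3 tumors of that group lay within the range of the controls. The log2 fold change was -0.26 (standard error 0.36, 95% interval -1.09 to 0.56, adjusted p = 0.83, edgeR; -0.048 without replicate 2). Retnlg was at 2.12, 2.26 and 3.30 CPM with Dnmt3a+/+ BM and at 1.97, 2.59, 2.78 and 3.65 CPM with Dnmt3a+/- BM, the narrowest spread of the 8 with 1.85-fold between the lowest and the highest tumor. Its log2 fold change was 0.10 (standard error 0.35, 95% interval -0.71 to 0.91, adjusted p = 0.945, edgeR).

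The 2 calprotectin subunits varied together across tumors, with r = 0.83 between their log2 CPM over the 7 tumors, a description that rests on shared libraries. Their proportion still varied. The CPM of S100a9 over that of S100a8 was 2.09, 1.90 and 1.95 with Dnmt3a+/+ BM and 2.61, 1.51, 1.61 and 1.45 with Dnmt3a+/- BM. Dnmt3a+/- BM replicate 1 was above and replicates 2, 3 and 4 were below all 3 controls, so the spread with Dnmt3a+/- BM was on both sides of the control range.

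Of the receptors, Csf3r was at 8.65, 5.18 and 8.26 CPM in Dnmt3a+/+ BM replicates 1 to 3 and at 7.79, 8.88, 5.10 and 2.49 CPM in Dnmt3a+/- BM replicates 1 to 4. The tumors of the deleted graft spanned 3.57-fold, and replicate 4 was below every other tumor. The log2 fold change was -0.28 (standard error 0.45, 95% interval -1.32 to 0.76, adjusted p = 0.864, edgeR; -0.50 without replicate 2). Il1r2 was at 7.55, 4.45 and 5.72 CPM with Dnmt3a+/+ BM and at 7.93, 10.2, 4.10 and 2.16 CPM with Dnmt3a+/- BM. Replicates 1 and 2 of the Dnmt3a+/- BM group were above and replicates 3 and 4 below all 3 controls, and the log2 fold change was 0.05 (standard error 0.52, 95% interval -1.17 to 1.26, adjusted p = 0.987, edgeR; -0.30 without replicate 2). Trem1 was at 9.43, 4.37 and 3.33 CPM with Dnmt3a+/+ BM and at 5.34, 11.7, 3.31 and 1.73 CPM with Dnmt3a+/- BM, the widest spread of the 8 with 6.74-fold between the lowest and the highest tumor. Its log2 fold change was -0.05 (standard error 0.66, 95% interval -1.59 to 1.49, adjusted p = 0.988, edgeR; -0.70 without Dnmt3a+/- BM replicate 2).

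The formyl peptide receptors had the lowest counts. Fpr1 was at 0.833, 0.734 and 0.704 CPM with Dnmt3a+/+ BM and at 0.973, 1.94, 0.508 and 0.351 CPM with Dnmt3a+/- BM. As with Il1r2, replicates 1 and 2 of the Dnmt3a+/- BM group lay above all 3 controls and replicates 3 and 4 below them. The control tumors of Fpr1 were close together, with an SD of 0.0677 CPM against 0.713 CPM with Dnmt3a+/- BM, and the log2 fold change was 0.32 (standard error 0.62, 95% interval -1.11 to 1.75, adjusted p = 0.893, edgeR; -0.29 without Dnmt3a+/- BM replicate 2). Fpr2 was at 1.29, 0.359 and 0.673 CPM with Dnmt3a+/+ BM and at 0.774, 2.02, 0.630 and 0.676 CPM with Dnmt3a+/- BM. Replicate 2 stood above the rest of its group, and the other 3 tumors lay within the control range. The log2 fold change was 0.41 (standard error 0.63, 95% interval -1.05 to 1.88, adjusted p = 0.855, edgeR; -0.13 without Dnmt3a+/- BM replicate 2).

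**Figure D2:**
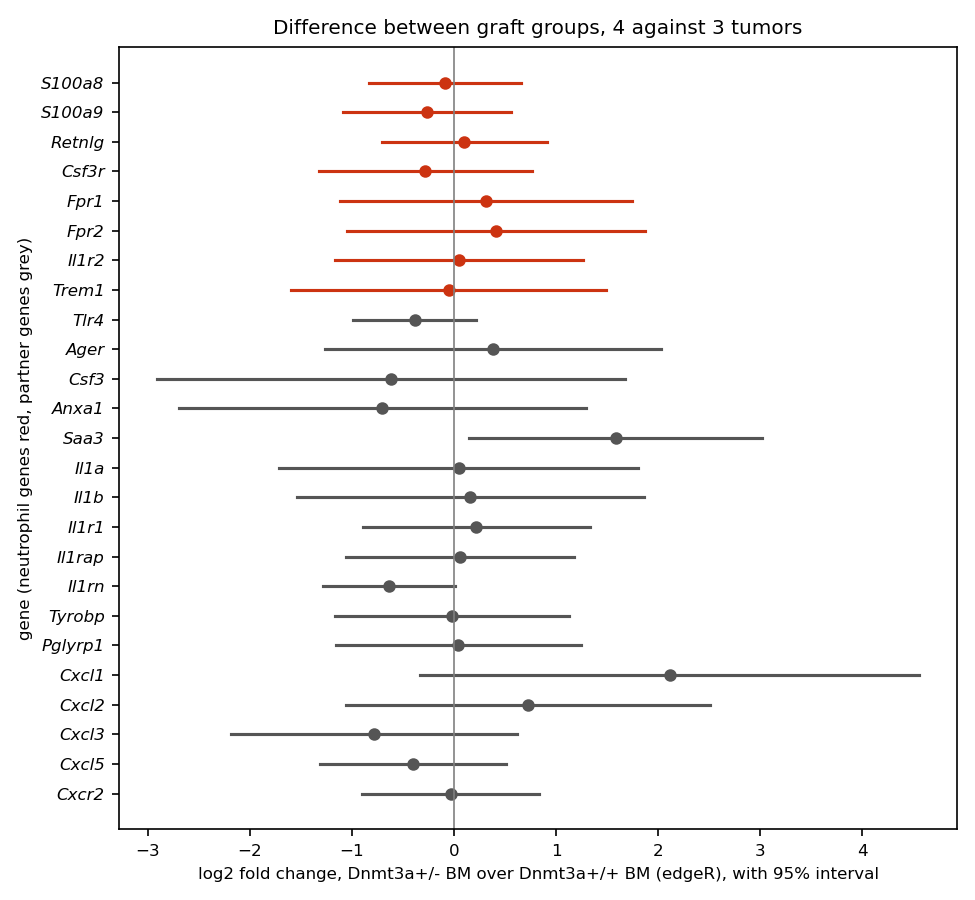
log2 fold change of Dnmt3a+/- BM over Dnmt3a+/+ BM tumors by edgeR (x axis) with its 95% interval, for the 8 neutrophil genes (red) and 17 genes for their ligands, partners and related receptors (grey). Each of the 8 red intervals crosses 0, and of the grey ones the interval of Saa3 does not.

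The members did not share 1 order of the tumors. Each of the 5 membrane receptors was highest in Dnmt3a+/- BM replicate 2, and 4 of the 5 were lowest in Dnmt3a+/- BM replicate 4, with Fpr2 lowest in Dnmt3a+/+ BM replicate 2. For the secreted proteins the same tumors were at other ends: S100a8 and S100a9 were lowest in Dnmt3a+/- BM replicate 2, and S100a8 and Retnlg were highest in Dnmt3a+/- BM replicate 4. Over the 7 tumors, the correlation of log2 CPM was between 0.51 and 0.95 for the 10 receptor pairs (median 0.81), and between -0.68 and -0.02 for the 15 pairs of a receptor with a secreted protein (median -0.42). The 3 pairs of secreted proteins ranged from -0.01 (S100a9 with Retnlg) to 0.83, so the secreted proteins did not form 1 group, and Retnlg was lowest in Dnmt3a+/- BM replicate 1, where S100a9 ranked 2 of 7. Without Dnmt3a+/- BM replicate 2, the receptor pairs ranged from 0.22 to 0.96 and the mixed pairs from -0.86 to 0.78. Of the 15 mixed pairs, 9 stayed negative without that tumor, among them all 5 with Retnlg, and 6 became positive, all 5 of S100a9 and the pair of S100a8 with Fpr2. These are descriptions of 7 libraries and carry no test.

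**Figure D3:**
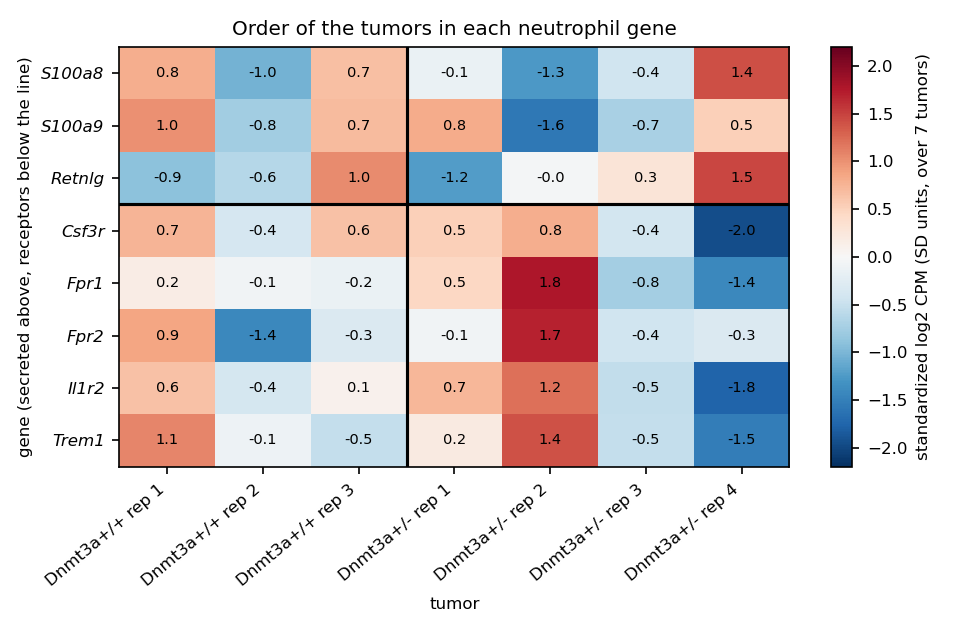
Standardized log2 CPM (color and printed value, in SD units over the 7 tumors) of each neutrophil gene (rows, secreted proteins above and receptors below the line) in each tumor (columns, Dnmt3a+/+ BM left of the line). In the column of Dnmt3a+/- BM replicate 2 all 5 receptors are above and S100a8 and S100a9 below their means, and in that of replicate 4 the receptors are below and the secreted proteins above.

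Some summed markers of other cells were highest or lowest in the same tumors as some of the members. The 7 general leukocyte markers, among them Ptprc (CD45), Laptm5 and Lcp1, summed to 122, 56.8 and 101 CPM in Dnmt3a+/+ BM replicates 1 to 3 and to 127, 218, 94.9 and 50.9 CPM in Dnmt3a+/- BM replicates 1 to 4. The highest and lowest of these sums were in the tumors in which the receptors were highest and, for 4 of 5, lowest. The sum of the 8 macrophage markers was likewise highest in Dnmt3a+/- BM replicate 2, at 245 CPM against 53.9 to 115 CPM in the other tumors. Mrc1 went the other way, at 13.7 CPM there and highest in Dnmt3a+/+ BM replicate 3 at 41.0 CPM. The fibroblast sum (993 CPM, against 149 to 355 CPM elsewhere) and the mast cell and basophil sum (108 CPM, against 0.795 to 25.5 CPM) were also highest in Dnmt3a+/- BM replicate 2. The monocyte sum was lowest there at 409 CPM, of which Plac8 alone was 394 CPM. Ly6c2, F13a1 and Vcan of the same list were highest there, at 2.71, 5.01 and 5.05 CPM. Ccr2 was at 2.51 CPM there and highest in Dnmt3a+/+ BM replicate 1 at 5.64 CPM. The part of these cells in the receptor levels was not tested.

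Squamous markers were high in most of the tumors, and their sum is set here beside S100a8 and S100a9. All 11 squamous markers were tested and 0 had an unadjusted p under 0.05. Their summed level was 4326 to 21895 CPM with Dnmt3a+/+ BM and 222 to 25559 CPM with Dnmt3a+/- BM. Dnmt3a+/- BM replicate 2, the tumor with the least S100a8 and S100a9, was also that with the least squamous message, and Krt5 and Trp63, a keratin and a transcription factor of basal squamous cells, were at 0.0815 and 0.0204 CPM there. By rank, 5 of 7 tumors held the same place for S100a9 and for the squamous sum. The other 2, Dnmt3a+/+ BM replicate 1 and Dnmt3a+/- BM replicate 1, had the 2 highest values of each and changed places. The squamous sums ranked 3 to 6 were close together: 5041 CPM in Dnmt3a+/+ BM replicate 3, 4832 and 4683 CPM in Dnmt3a+/- BM replicates 4 and 3, and 4326 CPM in Dnmt3a+/+ BM replicate 2. S100a9 in these tumors, in the same sequence, was at 76.2, 71.4, 44.7 and 43.9 CPM. For S100a8, 5 of 7 tumors also had the same rank, and the exceptions were Dnmt3a+/- BM replicate 1, highest for the squamous sum and ranked 4 of 7 for S100a8, and Dnmt3a+/- BM replicate 4, ranked 4 of 7 for the squamous sum at 4832 CPM and highest for S100a8. For Retnlg, 0 of 7 tumors had the same rank as in the squamous sum. The sizes differed, since the squamous sum spanned 222 to 25559 CPM and S100a9 spanned 2.63-fold. S100a8 was at 21.5 CPM in Dnmt3a+/- BM replicate 2 and at 23.1 CPM in Dnmt3a+/+ BM replicate 2, where the squamous sums were 222 and 4326 CPM. The part of squamous epithelium in the calprotectin level was not tested.

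**Figure D4:**
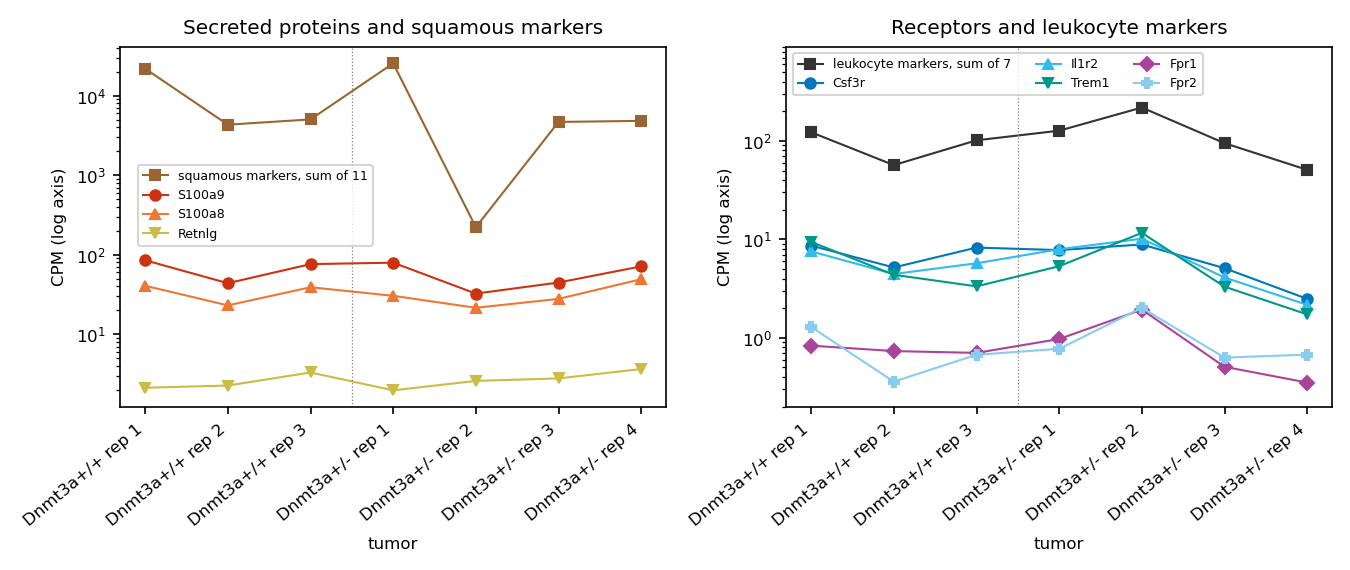
CPM (log axis) by tumor of the secreted neutrophil genes beside the sum of 11 squamous markers (left) and of the receptors beside the sum of 7 leukocyte markers (right). The squamous sum drops to 222 CPM in Dnmt3a+/- BM replicate 2, where S100a8 and S100a9 are lowest, and the leukocyte sum reaches 218 CPM there, where the 5 receptors are highest.

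To set the members against the amount of leukocyte message, each CPM was divided by the CPM of Ptprc in the same tumor, a comparison chosen after the values had been seen. Csf3r was the 1 member of 8 whose groups then did not overlap. Its ratio to Ptprc was 0.528, 0.774 and 0.785 with Dnmt3a+/+ BM and 0.520, 0.409, 0.496 and 0.379 with Dnmt3a+/- BM, all 4 lower. Of all genes tested, 0.670% were lower without overlap on this scale and 1.51% higher. The gap between the nearest tumors was small, 0.528 against 0.520 from 322 and 312 counts of Csf3r, and no test was run on a comparison chosen in this way. Il1r2 over Ptprc ranged from 0.461 to 0.664 with Dnmt3a+/+ BM and from 0.329 to 0.530 with Dnmt3a+/- BM, which overlap.

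The tumors of BMT18 and of BMT8, read as 2 experiments, gave different orders for some receptors. For Fpr1 and Il1r2, both Dnmt3a+/- BM tumors were above both controls in BMT18 and both were below the 1 control in BMT8. The log2 ratio of mean CPM, Dnmt3a+/- BM over Dnmt3a+/+ BM, was 0.89 in BMT18 and -0.71 in BMT8 for Fpr1, and 0.59 and -0.87 for Il1r2. Such an order was found for 2 of 8 members and for 4.82% of all genes, with the opposite order in 5.52%. Csf3r had log2 ratios of 0.27 and -1.12, with both Dnmt3a+/- BM tumors below the control in BMT8 and overlap in BMT18. Trem1 had 0.30 and -0.40. Of the secreted proteins, S100a8 (-0.30 and -0.02) and Retnlg (0.06 and -0.04) overlapped in both experiments, while S100a9 (-0.21 and -0.39) overlapped in BMT18 and was below the control in both Dnmt3a+/- BM tumors of BMT8. The difference between the experiments was tested as an interaction in edgeR, a test added after the values had been seen, and 0 of 8 members passed at an unadjusted p under 0.05, against 4.62% of all genes. Its size on the log2 scale was 1.60 for Fpr1 (standard error 0.89, unadjusted p = 0.124, adjusted p = 1.00), 1.46 for Il1r2 (standard error 0.74, unadjusted p = 0.0972, adjusted p = 1.00) and 1.39 for Csf3r (standard error 0.74, unadjusted p = 0.112, adjusted p = 1.00), by edgeR. It rests on a single control tumor in BMT8.

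**Figure D5:**
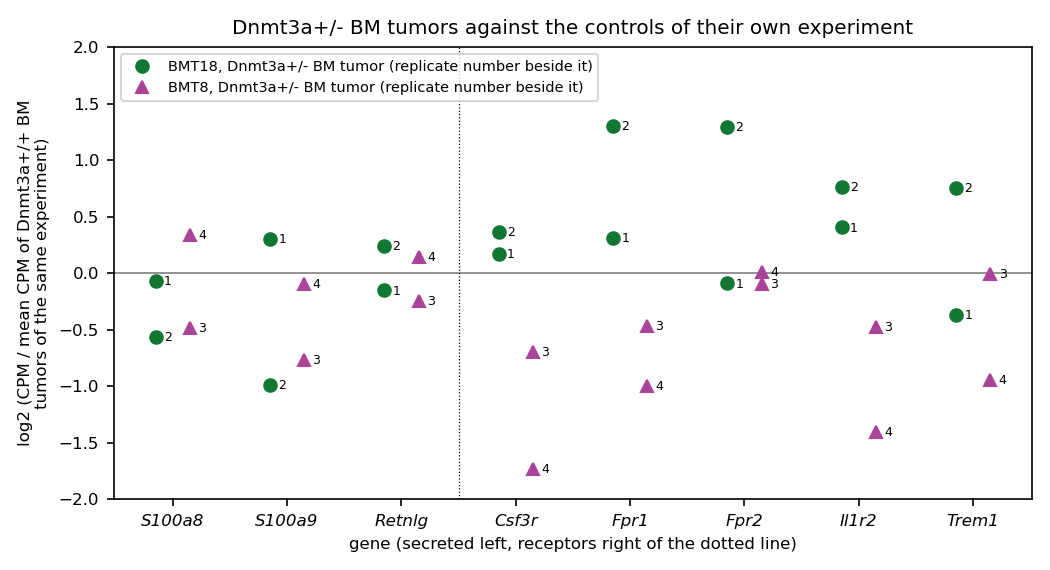
log2 of the CPM of each Dnmt3a+/- BM tumor over the mean CPM of the Dnmt3a+/+ BM tumors of the same experiment (y axis) for each neutrophil gene, with green circles for BMT18 (2 controls) and purple triangles for BMT8 (1 control) and replicate numbers beside the points. For Csf3r, Fpr1 and Il1r2 both circles lie above 0 and both triangles below it.

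The ligands and partners of the members were examined as a list of 17 genes, all tested, with 0 called by edgeR, 0 called by DESeq2 (which gave no p-value for 1 of them, Cxcl1), 1 higher and 0 lower at an unadjusted p under 0.05 (5.83% and 5.20% of all genes). The 1 was Saa3, a serum amyloid A whose protein family includes ligands of Fpr2, at 4.14, 9.04 and 11.8 CPM with Dnmt3a+/+ BM and at 9.83, 47.6, 13.1 and 29.6 CPM with Dnmt3a+/- BM (log2 fold change 1.59, standard error 0.62, adjusted p = 0.426, edgeR; 1.10 without Dnmt3a+/- BM replicate 2). Its groups overlapped. Anxa1, whose protein also binds Fpr2, was abundant and was high in the 2 tumors with the most squamous message, with 9545 CPM in Dnmt3a+/+ BM replicate 1, 8010 CPM in Dnmt3a+/- BM replicate 1 and 469 CPM in Dnmt3a+/- BM replicate 2 (log2 fold change -0.70, standard error 0.86, adjusted p = 0.81, edgeR; -0.32 without replicate 2). Csf3, the ligand of Csf3r, was scarce at 1.25 to 4.22 CPM with Dnmt3a+/+ BM and 0.108 to 3.74 CPM with Dnmt3a+/- BM (log2 fold change -0.62, standard error 0.99). Tlr4 and Ager, receptors of calprotectin, had log2 fold changes of -0.38 and 0.38 with standard errors of 0.26 and 0.71.

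Around the decoy receptor Il1r2, the interleukin-1 genes behaved differently from one another. Il1rn, the soluble antagonist of the same receptor system, was at 232, 189 and 270 CPM with Dnmt3a+/+ BM and at 173, 82.0, 171 and 166 CPM with Dnmt3a+/- BM. All 4 tumors with the deleted graft were below all 3 controls, as in 6.32% of all genes that were lower without overlap. The log2 fold change was -0.64 (standard error 0.28, unadjusted p = 0.0542, adjusted p = 0.462, edgeR), and from -0.76 to -0.41 when 1 tumor was left out. The agonists did not show this order. Il1b was at 40.2, 40.1 and 20.3 CPM with Dnmt3a+/+ BM and at 28.3, 96.4, 13.3 and 12.1 CPM with Dnmt3a+/- BM, highest in the tumor in which Il1r2 was highest, and its log2 fold change was 0.16 (standard error 0.73; -0.89 without Dnmt3a+/- BM replicate 2). For Il1a it was 0.05 (standard error 0.76; -0.53 without that tumor). The signaling receptor chains Il1r1 and Il1rap had log2 fold changes of 0.22 (standard error 0.48) and 0.06 (standard error 0.48).

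Tyrobp, the adaptor of Trem1, was at 9.32, 3.89 and 11.1 CPM with Dnmt3a+/+ BM and at 6.94, 14.3, 6.03 and 4.70 CPM with Dnmt3a+/- BM, again highest in Dnmt3a+/- BM replicate 2 (log2 fold change -0.02, standard error 0.49; -0.44 without that tumor). Pglyrp1, a peptidoglycan-binding protein that is a ligand of Trem1, was abundant at 452 to 1529 CPM with Dnmt3a+/+ BM and 559 to 1337 CPM with Dnmt3a+/- BM (log2 fold change 0.04, standard error 0.52). Among chemokines that draw neutrophils through Cxcr2, Cxcl1 was at 2.90, 6.32 and 6.67 CPM with Dnmt3a+/+ BM and at 6.04, 73.1, 6.66 and 5.84 CPM with Dnmt3a+/- BM. That is 1 high tumor, again replicate 2, and 3 within the control range (log2 fold change 2.11, standard error 1.05, adjusted p = 0.501, edgeR; 0.25 without replicate 2). Cxcl2 was also highest there at 41.8 CPM, against 4.61 to 11.3 CPM in the other 6 tumors (log2 fold change 0.73, standard error 0.77; -0.40 without that tumor). Cxcl5 was the most abundant of the chemokines, at 200 to 558 CPM with Dnmt3a+/+ BM and 200 to 394 CPM with Dnmt3a+/- BM, and its log2 fold change was -0.40 (standard error 0.39), beside -0.78 for Cxcl3 (standard error 0.60). Cxcr2 itself, the chemokine receptor of mature neutrophils, was at 5.08, 4.14 and 5.48 CPM with Dnmt3a+/+ BM and at 6.54, 5.58, 4.65 and 2.41 CPM with Dnmt3a+/- BM (log2 fold change -0.03, standard error 0.37).

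The 13 granule genes ranged from at or near 0 to abundant. Mpo, Elane, Prtn3, Ctsg, Camp and Ngp, which neutrophil precursors make in the marrow, had at most 13 counts in any tumor and could not be tested. Elane had 0 counts in 6 of 7 tumors, where 3 counts would be 0.0468 to 0.0918 CPM. Of the 7 granule genes tested, 0 were called by edgeR and 1 by DESeq2, against 1.83% of the genes DESeq2 tested. At an unadjusted p under 0.05, 2 were higher, against 5.83% of all genes. Lcn2, the siderophore-binding protein of specific granules that inflamed gut epithelium also makes, was at 21.2, 17.8 and 29.9 CPM with Dnmt3a+/+ BM and at 62.8, 550, 63.2 and 99.0 CPM with Dnmt3a+/- BM. All 4 tumors were above all 3 controls, as in 6.12% of all genes (log2 fold change 3.08, standard error 0.89, unadjusted p = 0.0092, adjusted p = 0.373, edgeR; 1.73 without Dnmt3a+/- BM replicate 2). Mmp9, a gelatinase of neutrophils and macrophages, was at 3.71, 2.59 and 4.13 CPM with Dnmt3a+/+ BM and at 4.79, 52.9, 11.7 and 7.49 CPM with Dnmt3a+/- BM, also without overlap (log2 fold change 2.47, standard error 0.86, unadjusted p = 0.0216, adjusted p = 0.406, edgeR; 1.24 without replicate 2). Mmp9 was the 1 called by DESeq2, which gave no p-value for Lcn2 and Lyz2. Ltf (lactotransferrin), the most abundant of the list, was high in the 2 tumors with the most squamous message. It was at 7402 CPM in Dnmt3a+/+ BM replicate 1, 8261 CPM in Dnmt3a+/- BM replicate 1 and 199 CPM in Dnmt3a+/- BM replicate 2. Which cells of the tumor made it was not tested.

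Ly6g and Cd177, the usual surface markers of mouse neutrophils, did not share the order of the members. Ly6g was at 137, 168 and 177 CPM with Dnmt3a+/+ BM and at 85.2, 64.3, 199 and 155 CPM with Dnmt3a+/- BM. It was lowest in Dnmt3a+/- BM replicate 2, where the 5 receptors were highest, and it belongs to the Ly6 family, whose shared reads make its level uncertain. Cd177 was at 332, 412 and 209 CPM with Dnmt3a+/+ BM and at 284, 188, 227 and 81.3 CPM with Dnmt3a+/- BM (log2 fold change -0.70, standard error 0.41). Ly6g was part of a list of 20 genes typical of neutrophils, most of them for surface proteins, and Cd177 was counted with the granule genes. All 20 were tested, 0 were called by edgeR or DESeq2 and 1 was at an unadjusted p under 0.05. That was Slfn4, whose Schlafen-family protein is intracellular, at 41.9, 53.1 and 97.3 CPM with Dnmt3a+/+ BM and at 31.9, 47.3, 26.0 and 44.7 CPM with Dnmt3a+/- BM (log2 fold change -0.78, standard error 0.33, adjusted p = 0.45, edgeR). Their median log2 fold change was 0.10, with 11 of the 20 above 0.

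The remaining lists are given by count. Of all genes tested, 5.83% were higher and 5.20% lower at an unadjusted p under 0.05. Of 16 genes for recruitment, 14 were tested and 1, Il23a, which encodes a subunit of interleukin-23, had an unadjusted p under 0.05 (1.02, 0.859 and 4.83 CPM against 2.74, 20.2, 7.03 and 6.97 CPM, log2 fold change 2.05, standard error 0.87, adjusted p = 0.448, edgeR; 1.35 without Dnmt3a+/- BM replicate 2). Of 6 myeloid transcription factors, 5 were tested and 1, Cebpb, had an unadjusted p under 0.05, at 16.6, 7.04 and 13.6 CPM with Dnmt3a+/+ BM and at 6.36, 8.11, 4.47 and 6.41 CPM with Dnmt3a+/- BM (log2 fold change -0.97, standard error 0.35, adjusted p = 0.407, edgeR). Cebpe, a factor of granulocyte maturation in the marrow, had at most 4 counts in any tumor. Of the markers of other cells, 0 of 7 leukocyte, 0 of 8 macrophage, 0 of 5 monocyte and 0 of 8 colon epithelial genes had an unadjusted p under 0.05. In that sequence, 6, 7, 3 and 0 of them had log2 fold changes above 0, with medians of 0.46, 0.87, 0.59 and -0.57. With 1 tumor left out, these medians ranged from -0.055 to 0.67, 0.15 to 1.10, -0.22 to 0.90 and -0.71 to -0.40. The eosinophil markers were at or near 0, with a sum of 0.243 to 1.08 CPM and 1 of 6 tested. Of 5 mast cell and basophil genes tested, 1 was higher at an unadjusted p under 0.05 (Ms4a2), of 6 fibroblast genes 1 (Pdgfra) and of 5 erythroid genes 4. DESeq2 called 2 of the erythroid genes, Hba-a1 and Alas2 (adjusted p = 0.0374 and 0.0467), against 1.83% of the genes it tested. The erythroid sum was 30.9 to 43.2 CPM with Dnmt3a+/+ BM and 20.8, 182, 44.5 and 381 CPM in Dnmt3a+/- BM replicates 1 to 4, highest in the tumor in which 4 receptors were lowest. What part blood in the tissue had in the members was not tested.

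The genes whose pattern was most like that of the members were named by the correlation of log2 CPM with the mean standardized log2 CPM of the 8 members over the 7 tumors. The 10 closest were Eef1akmt3 (0.98), Sh2d1b1 (0.96), Ifi207 (0.96), Ms4a6b (0.95), Map7d1 (0.95), Tmem50b (0.95), Evi2a (0.95), Zfp35 (0.95), Smim3 (0.94) and Arhgap45 (0.94). The set is not firm, since leaving out any 1 tumor kept 1 to 3 of the 10. The mean is mainly that of the receptors: on the same measure Fpr2 was at 0.83, Il1r2 and Csf3r at 0.81, Trem1 at 0.74 and Fpr1 at 0.70, while S100a9 was at 0.21, S100a8 at 0.05 and Retnlg at -0.29.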

How the data were processed

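Polyadenylated RNA of 7 whole colon tumors (100 ng of total RNA with a RIN over 7, directional libraries) was sequenced by the authors, who trimmed reads with Trimmomatic, aligned them with STAR to mouse build 38 (mm10) and estimated counts per gene with RSEM. The deposited values are these estimated counts, as whole numbers without normalization; the annotation release is not given in the sources used here. Columns were assigned to tumors through the sample descriptions, which repeat the column names. Symbols matched 42462 of 43346 identifiers, and the other 884 held 0.104% of the counts.

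Groups were compared over all 7 tumors with edgeR 4.0.16 in R 4.3.3 (TMM, filterByExpr, quasi-likelihood test, Benjamini-Hochberg adjustment over all 15810 genes tested, no covariate); a call is an adjusted p under 0.05 with an absolute log2 fold change over 1. Intervals are 95%. Log2 CPM used a prior count of 2. Each tumor is a separate mouse. No library was a duplicate, the closest pair having a Spearman correlation of 0.984. Scripts were checked on simulated data. Alternatives were DESeq2 1.42.0, RLE or plain library sizes, other filters, robust dispersion, the experiment as covariate, the replicate block, BMT18 alone and each tumor left out.

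The members, lists and tests were chosen with earlier results of these data known. Genes named are the 8 members, the 17 partners, in every other list those at an unadjusted p under 0.05 and the 3 with the highest CPM, and the 10 of closest pattern; some are named in groups or left to counts, and 1 list is not reported here. Upstream sequences are from RefSeq (all 8 genes matched) and positions from GENCODE M21, both of the build of the files.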

Additional observations from a re-analysis of the deposited data

Results flagged for a closer look

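In a group of 4 tumors, a single tumor far from the other 3 was looked for in 80 values, of which chance would give about 4 if they were independent, and 10 were found, 9 of them in Dnmt3a+/- BM replicate 2. The values are of genes in the same libraries and are not independent, so no excess over chance can be read from these counts. In that tumor Fpr2 was at 2.02 CPM, with the nearest tumor of its group at 0.774 CPM, and it was the only member so placed. Among the partner and granule genes, Cxcl1 was at 73.1 CPM (nearest 6.66 CPM), Lcn2 at 550 CPM (nearest 99.0 CPM) and Mmp9 at 52.9 CPM (nearest 11.7 CPM), and Il1rn was low at 82.0 CPM (nearest 166 CPM). The transcription factor gene Cebpd was at 48.7 CPM there (nearest 19.2 CPM). Genes of other cells were placed in the same way, with Vcan at 5.05 CPM, the mucosal mast cell protease Mcpt1 at 69.6 CPM and the collagen gene Col1a1 at 239 CPM. In Dnmt3a+/- BM replicate 1, the monocyte chemokine receptor Ccr2 was at 5.29 CPM (nearest 2.51 CPM). No explanation was tested for these tumors.

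For 5 of the 25 members and partners, both Dnmt3a+/- BM tumors were above the controls in BMT18 and below the control in BMT8. The interaction, BMT18 minus BMT8 on the log2 scale in edgeR, was 1.60 for Fpr1 (unadjusted p = 0.124), 1.46 for Il1r2 (unadjusted p = 0.0972), 0.67 for Pglyrp1 (unadjusted p = 0.142), 2.61 for Cxcl2 (unadjusted p = 0.0393) and 1.03 for Cxcr2 (unadjusted p = 0.184), and the adjusted p from edgeR was 1.00 for each. The same order was found in 4.82% of all genes tested.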

How the results depend on the processing

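The count of members called, and of members at an unadjusted p under 0.05, was 0 under every alternative run, by edgeR and DESeq2. Over all genes, edgeR called 0 in each of its settings and DESeq2 called 299. The median log2 fold change of the members was 0.019 with DESeq2, 0.022 with RLE, 0.27 with plain library sizes (which shift the median of all genes to 0.21), 0.012 without a filter, -0.059 with a stricter filter that leaves 6 members, 0.30 in BMT18 alone, and from -0.21 to 0.16 when 1 tumor was left out. Of the 10 genes of closest pattern, 1 to 3 were kept when 1 tumor was left out.

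The replicate numbers do not pair the tumors: same-numbered tumors had correlations of their deviations of 0.57, 0.07 and -0.04, and not every tumor correlated best with its own number. With the replicate block (3 pairs), edgeR called 0 genes and 0 members, and the median of the members was 0.082. Log2 fold changes turned sign under the block for Trem1 (0.19), Retnlg (-0.052), Ager (-0.39), Tyrobp (0.15), Pglyrp1 (-0.066) and Cxcr2 (0.19). With plain library sizes they turned for S100a8 (0.11), Trem1 (0.22), Tyrobp (0.28) and Cxcr2 (0.21), and with the experiment as covariate for Il1r2 (-0.015), Trem1 (0.018), Il1a (-0.26) and Pglyrp1 (-0.030). In BMT18 alone they turned for Csf3r (0.28), Trem1 (0.32), Tyrobp (0.70) and Cxcr2 (0.41), over the CPM of Ptprc for Fpr1 (-0.20), Il1r2 (-0.37) and Retnlg (-0.12), and for Tyrobp with RLE (0.00037) and without a filter (0.0023). The cause was not tested.

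When 1 tumor was left out, the range spanned 0 for S100a8 (-0.36 to 0.091), Fpr1 (-0.29 to 0.59), Fpr2 (-0.13 to 0.99), Il1r2 (-0.30 to 0.33), Trem1 (-0.70 to 0.51) and Retnlg (-0.064 to 0.32), and did not for Csf3r (-0.50 to -0.02) and S100a9 (-0.50 to -0.05). Among partners it spanned 0 for Csf3 (-1.58 to 0.17), Anxa1 (-1.68 to 0.062), Tyrobp (-0.44 to 0.28), Pglyrp1 (-0.26 to 0.84), Il1a (-0.53 to 0.48), Il1b (-0.89 to 0.46), Il1r1 (-0.067 to 0.91), Il1rap (-0.24 to 0.32), Cxcl2 (-0.40 to 1.04), Cxcr2 (-0.18 to 0.19) and Ager (-0.40 to 0.72). Fpr1 and Fpr2 rest on 13 to 99 counts per tumor, so that counting error alone is large for them.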
